A study of Mus musculus with 18 samples.

Results

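The genes described here encode the machinery of mitosis, the separation of copied chromosomes, and of cytokinesis, the splitting of the cell body that follows. The list held 45 genes, chosen by their known roles and matched to the expression table by gene symbol. Of these, 44 had a row, out of 24705 rows with a gene symbol, and Ccnb1 was not analysed here. They were measured on 18 Affymetrix arrays of mouse bone marrow-derived macrophages, cells that form from marrow flushed out of the femur when M-CSF (30 ng/mL), their growth factor, is present. After 4 days the serum in the medium was exchanged for 10% plasma from mice fed Western diet over 8 weeks, and the cells were lysed for RNA after 48 hours. Plasma donors were wild-type C57BL/6J mice (WT, 4 arrays), mice lacking apolipoprotein E (ApoE, 5 arrays), and mice lacking both apolipoprotein E and stabilin-1 (AS1, 3 arrays) or stabilin-2 (AS2, 6 arrays). The ApoE, AS1 and AS2 donors thus share the Apoe knockout, and all 4 donor groups share the diet. Apolipoprotein E is a ligand for the clearance of plasma lipoproteins, and the stabilins are scavenger receptors. The genotypes are those of the donors; the labels give neither the genotype of the macrophages nor the donors' age, and they do not say whether plasma was pooled or cultures were separate. The p-values therefore rest on the spread from array to array alone, and that spread may be technical.

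Entry into mitosis depends on cyclins A and B bound to the kinase Cdk1, together with the Polo and Aurora kinases. Kinesin motors and microtubule-binding proteins then build the spindle, kinetochores couple chromosomes to it, and a checkpoint holds the anaphase-promoting complex inactive until every chromosome is attached. The chromosomal passenger complex, centralspindlin and anillin complete the division. Most of these genes are transcribed late in the cell cycle and are nearly silent in resting cells, so their transcripts mark dividing cells; cultures of marrow with M-CSF hold dividing macrophages and their precursors. In many of their promoters a cell cycle genes homology region (CHR) and CCAAT boxes lie close to the transcription start, where the DREAM complex represses in resting cells and MYBL2 and FOXM1 complexes activate before division.

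Promoter sequences are shown because the genes listed moved together, as described further on. RefSeq promoter windows (GRCm38.p6, from 250 bases before the annotated start to 50 after it) matched 38 of the 45 genes; Ccna2, Aurkb, Incenp, Spc24, Ska1, Tpx2 and Kif20a had no entry. The windows were searched on both strands for the CHR as TTTGAA or TTCGAA, and for CCAAT; these motifs share no overlapping match in the stretches printed here. Each stretch runs 5′ to 3′ on the gene's strand from 100 bases before the start (base 0) to 29 after it, with CHR and CCAAT matches in capitals, a match on the other strand reading TTCAAA or ATTGG. The first 10 genes carry both motifs near the start, and Birc5 is set beside them as a gene with neither.
Ccnb2, chr9:70421525-70421654, minus strand: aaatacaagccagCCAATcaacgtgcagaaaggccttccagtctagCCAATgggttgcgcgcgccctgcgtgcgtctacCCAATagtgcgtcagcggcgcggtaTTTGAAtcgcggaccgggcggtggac
Cdk1, chr10:69352883-69353012, minus strand: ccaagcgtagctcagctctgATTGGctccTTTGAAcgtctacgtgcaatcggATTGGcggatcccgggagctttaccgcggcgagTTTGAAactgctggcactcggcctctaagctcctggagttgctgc
Bub1, chr2:127831830-127831959, minus strand: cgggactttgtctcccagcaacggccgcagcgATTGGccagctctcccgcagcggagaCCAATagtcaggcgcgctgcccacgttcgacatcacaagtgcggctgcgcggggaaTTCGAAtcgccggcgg
Cdc20, chr4:118437314-118437443, minus strand: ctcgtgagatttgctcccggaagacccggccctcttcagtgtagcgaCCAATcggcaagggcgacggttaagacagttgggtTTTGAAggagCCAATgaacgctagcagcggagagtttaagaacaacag
Ube2c, chr2:164769829-164769958, plus strand: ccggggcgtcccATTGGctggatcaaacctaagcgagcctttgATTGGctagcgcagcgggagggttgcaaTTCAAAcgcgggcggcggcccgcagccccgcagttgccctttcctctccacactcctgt
Kif11, chr19:37376282-37376411, plus strand: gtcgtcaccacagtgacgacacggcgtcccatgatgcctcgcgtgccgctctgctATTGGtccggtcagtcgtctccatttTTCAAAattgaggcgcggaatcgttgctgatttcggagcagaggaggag
Hmmr, chr11:40733408-40733537, minus strand: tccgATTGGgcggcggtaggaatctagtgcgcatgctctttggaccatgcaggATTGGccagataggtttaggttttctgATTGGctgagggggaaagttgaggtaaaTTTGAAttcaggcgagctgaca
Prc1, chr7:80294351-80294480, plus strand: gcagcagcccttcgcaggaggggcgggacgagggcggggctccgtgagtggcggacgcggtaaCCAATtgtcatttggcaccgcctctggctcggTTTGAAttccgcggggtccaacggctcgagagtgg
Racgap1, chr15:99651627-99651756, minus strand: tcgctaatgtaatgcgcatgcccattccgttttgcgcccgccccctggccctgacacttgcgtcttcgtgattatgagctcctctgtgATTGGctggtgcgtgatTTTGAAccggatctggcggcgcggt
Cenpf, chr1:189688057-189688186, minus strand: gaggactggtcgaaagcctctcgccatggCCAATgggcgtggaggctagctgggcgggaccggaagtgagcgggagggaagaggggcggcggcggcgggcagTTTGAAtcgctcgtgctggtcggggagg
Birc5, chr11:117849137-117849266, plus strand: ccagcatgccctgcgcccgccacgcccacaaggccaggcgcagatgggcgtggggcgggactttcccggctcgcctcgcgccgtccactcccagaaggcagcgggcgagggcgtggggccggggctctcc

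In the printed stretch of the cyclin B2 gene Ccnb2, the CCAAT matches began at positions -87, -54 and -21, in steps of 33 bases. The CHR of that stretch began at position 4. The Cdk1 stretch held CHR matches at -71 and -15 and CCAAT matches at -80 and -48, 32 bases apart. The Ube2c stretch had its CCAAT matches 31 bases apart, with the CHR at -29, and more CCAAT matches lay farther before the start. Bub1 was the printed gene whose CHR had the form TTCGAA, at position 14.

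A CHR match was found in 30 of the 38 genes (78.9%), against 5854 of all 27025 genes with a window (21.7%). CCAAT was found in 28 of 38 (73.7%) against 41.1% of all genes, and both motifs together in 25 (65.8%) against 9.65%. Melk, Mad2l1, Nuf2, Nusap1 and Birc5 held neither motif, and Ccnb1, Cenpe and Nek2 held CCAAT without a CHR. The matches lay close to the start: in a range set after the positions were seen, from -30 to 44, 27 of 38 genes (71.1%) had a CHR, against 4.1% of all genes. In the 150 bases before the start alone, a CHR was found in 12 of 38 genes (31.6%, against 11.2% of all genes). A match describes letters in a window and shows no binding.

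**Figure D1:**
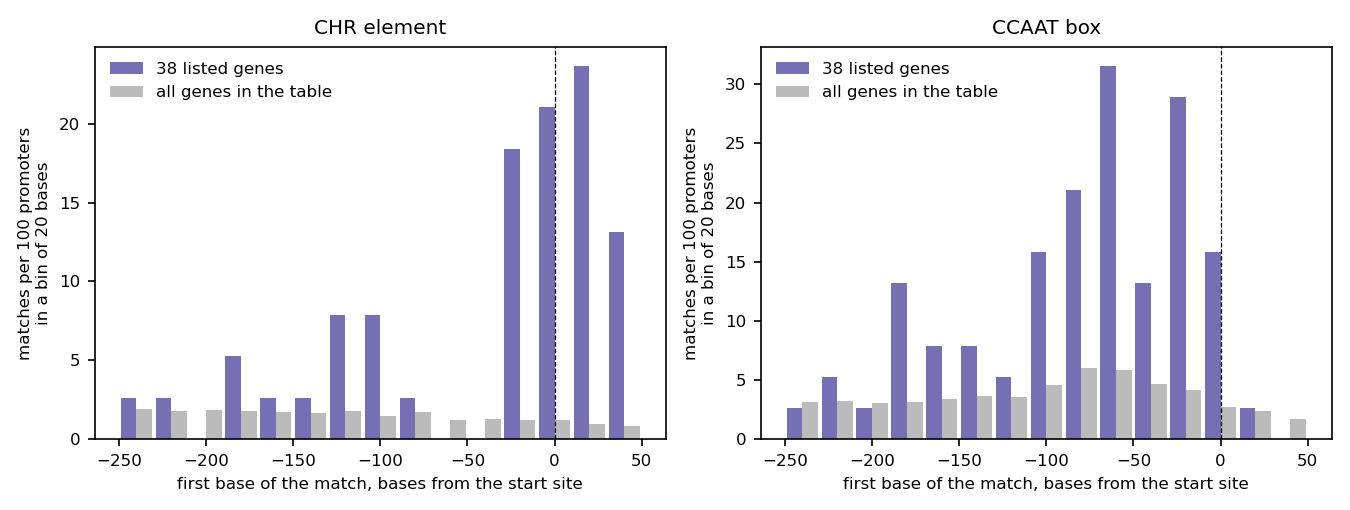
Matches to the CHR element (left) and the CCAAT box (right) per 100 promoters in bins of 20 bases, by distance from the annotated start site (dashed line), in the first listed window of 38 of the genes described (purple) and of all 27025 genes in the table (grey). CHR matches of the listed genes pile up around the start, with 23.7 per 100 promoters in the bin from 10 to 30 against 0.984 in all genes.

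Values below are deposited log2 expression values from RMA, a procedure that makes the distribution of values equal on every array (array median 4.37), so a shift of all transcripts at once would be hidden. A difference of 1 is a 2-fold difference. In these bulk samples, fewer cells of a type and less RNA per cell cannot be told apart. Sorted values were the same on 17 arrays, and those of ApoE replicate 1 were within 0.0019 of them. Differences are fitted by limma over all 24705 rows, with their standard errors, and passed the test at a Benjamini-Hochberg adjusted p under 0.05. ApoE replicate 2 stood apart for these genes: it was the highest ApoE array for 27 of the 44 genes, and ApoE replicate 4 was the lowest for 17. Among AS2 arrays, replicate 4 was highest for 27 genes and lowest for 0.

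The mitosis and cytokinesis genes were low with WT plasma, higher with ApoE and AS1 plasma and highest with AS2 plasma. The mean over the 44 genes was 5.43 to 5.51 on the 4 WT arrays, 6.74 to 7.01 on the 5 ApoE arrays, 7.04 to 7.12 on the 3 AS1 arrays and 7.65 to 7.85 on the 6 AS2 arrays, and no 2 groups overlapped in this mean. The group means ran in the order WT, ApoE, AS1, AS2 for 39 of 44 genes. Incenp, Spc25, Kif4 and Prc1 had a lower mean in AS1 than in ApoE, and Cenpa had a lower mean in AS2 than in AS1. With WT plasma Birc5, Ska1 and Ckap2 had means below the array median, where values can be compressed toward the floor of the array. Ska1 was below it with ApoE and AS1 plasma too.

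**Figure D2:**
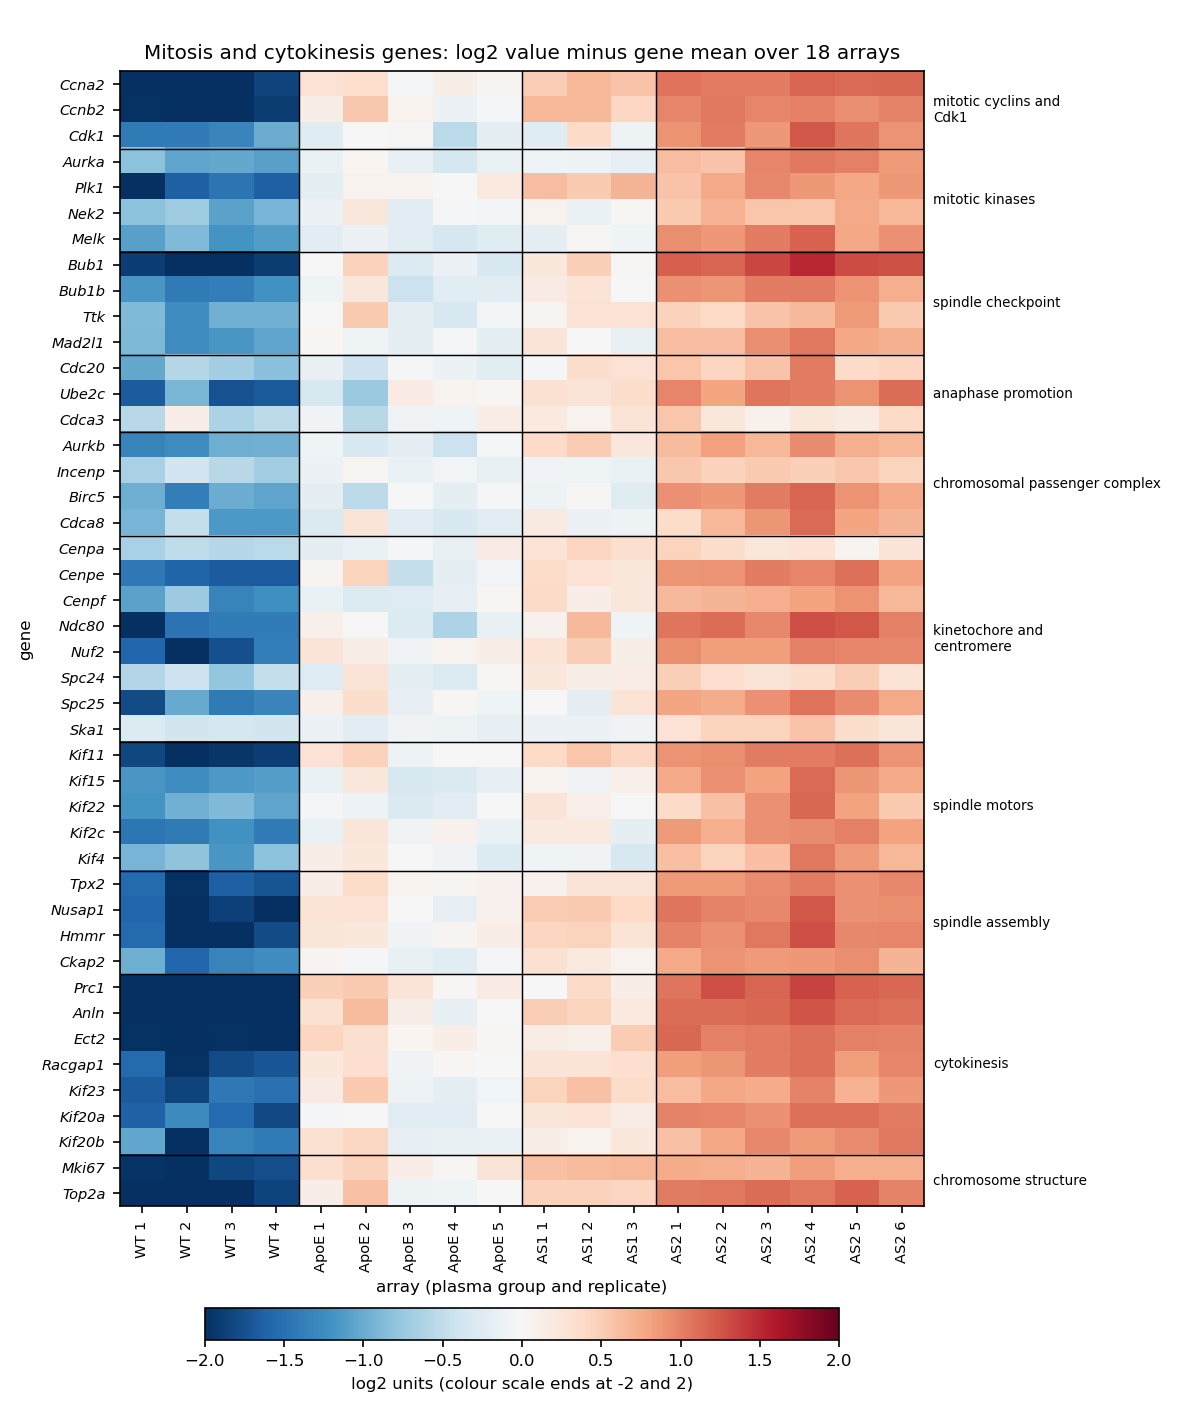
Log2 value of each of 44 genes (rows, grouped by role) on each of 18 arrays (columns) minus that gene's mean over the arrays; blue is lower and red is higher, and the colour scale ends at -2 and 2. The 4 WT arrays are blue in nearly every row, the ApoE and AS1 arrays lie near the middle, and the 6 AS2 arrays are red.

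ApoE was compared with WT plasma to ask what plasma of donors without apolipoprotein E does to these genes. Of 44 genes, 43 rose and 0 fell, against 8.54% of all rows higher and 8.36% lower. At an unadjusted p under 0.05, limma also gave 43 higher and 0 lower (share of all rows not counted). The median difference was 1.35 (quartiles 0.91 and 1.90), against -0.00362 over all rows. Prc1 had the largest difference, 2.58 ± 0.11 (adjusted p = 9.82e-11), and Ska1 the smallest, 0.20 ± 0.06 (adjusted p = 0.0158). Differences of at least 2-fold past the test were found in 29 of the 44 genes and in 0.826% of all rows. The ApoE arrays all lay above the WT arrays in 43 genes, against 7.4% of all rows. Cdca3 did not pass, at 5.31 ± 0.26 (SD, n = 5) against 5.05 ± 0.36 (SD, n = 4; adjusted p = 0.308).

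AS1 plasma was compared with ApoE plasma to ask what changes when the donors also lack stabilin-1. Here 8 of 44 genes rose, against 7.74% of all rows, and 0 fell, against 8.8%. At an unadjusted p under 0.05 limma gave 19 higher and 0 lower, and the share of all rows at that threshold was not counted. The 8 genes were Aurkb (0.58), Plk1 (0.58), Ccnb2 (0.47), Ccna2 (0.43), Cenpf (0.41), Cenpa (0.40), Mki67 (0.39) and Kif20a (0.32), in log2 differences. The median difference was 0.25, against 0.00192 over all rows. Of the fitted differences 40 of 44 were above 0, against 12576 of 24705 rows. The AS1 arrays all lay above the ApoE arrays in 12 genes, against 9.04% of all rows. A 2-fold difference past the test was reached by 0 genes, against 0.518% of all rows. The count of 8 genes depended on ApoE replicate 2: without it 18 genes rose, and without ApoE replicates 2 and 5 16 rose. With array weights 17 rose, while leaving out another single array gave 6 to 12. Shares of all rows were not counted in these fits, so it is not known whether they changed as well. Incenp had the smallest difference, -0.02 ± 0.06 (adjusted p = 0.921).

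AS2 plasma was compared with ApoE plasma to ask what changes when the donors also lack stabilin-2. Of 44 genes 43 rose and 0 fell, against 7.59% and 8.02% of all rows. At an unadjusted p under 0.05 limma gave 44 higher and 0 lower (share of all rows not counted). The median difference was 0.88 (quartiles 0.77 and 0.97), against -0.00235 over all rows. Bub1 had the largest difference, 1.35 ± 0.13 (adjusted p = 8.51e-07), and Cenpa the smallest, 0.33 ± 0.07 (adjusted p = 0.00227). The AS2 arrays all lay above the ApoE arrays in 40 genes, against 5.44% of all rows; Ttk, Cdca3, Cenpa and Spc24 overlapped. Of the genes 9 rose at least 2-fold, against 0.672% of all rows. Cdca3 did not pass, at 5.72 ± 0.17 (SD, n = 6) against 5.31 ± 0.26 (adjusted p = 0.0545), but it passed in 6 of 28 alternative fits. The comparison shares its 5 ApoE arrays with the comparisons of ApoE with WT and of AS1 with ApoE.

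Set directly against each other, AS2 plasma gave higher values than AS1 plasma in 36 of 44 genes and lower values in 0. Of all rows, 11.5% were higher and 10.6% lower. At an unadjusted p under 0.05 limma gave 39 higher and 0 lower (share of all rows not counted). The median difference was 0.65, against -0.00187 over all rows. The AS2 arrays all lay above the AS1 arrays in 41 genes, against 12.3% of all rows. Bub1 (1.06), Birc5 (1.05), Melk (1.03) and Prc1 (1.03) differed at least 2-fold, as did 1.01% of all rows. Plk1 (0.19), Ttk (0.37), Cdc20 (0.37), Cdca3 (0.10), Cenpa (-0.08), Spc24 (0.20), Kif23 (0.32) and Mki67 (0.11) did not pass, with adjusted p from 0.0608 to 0.783. Against WT plasma, 44 of 44 genes were higher and 0 lower by limma, both with AS1 and with AS2 plasma. Of all rows, 4.84% and 8.65% were higher at the same adjusted threshold, and 4.64% and 9.2% lower. At an unadjusted p under 0.05 limma also gave 44 genes higher and 0 lower in both comparisons (share of all rows not counted). In each of these, 43 genes did not overlap with WT, against 8.77% of all rows for AS1 and 8.41% for AS2 plasma, and 32 and 40 genes were at least 2-fold higher, against 0.935% and 1.23%. The median differences from WT were 1.49 and 2.27, against -0.00439 and -0.0068 over all rows. The largest were 2.85 for Ccna2 with AS1 plasma and 3.49 for Prc1 with AS2 plasma, an 11.2-fold difference. The smallest were 0.23 for Ska1 with AS1 plasma and 0.67 for Cdca3 with AS2 plasma.

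**Figure D3:**
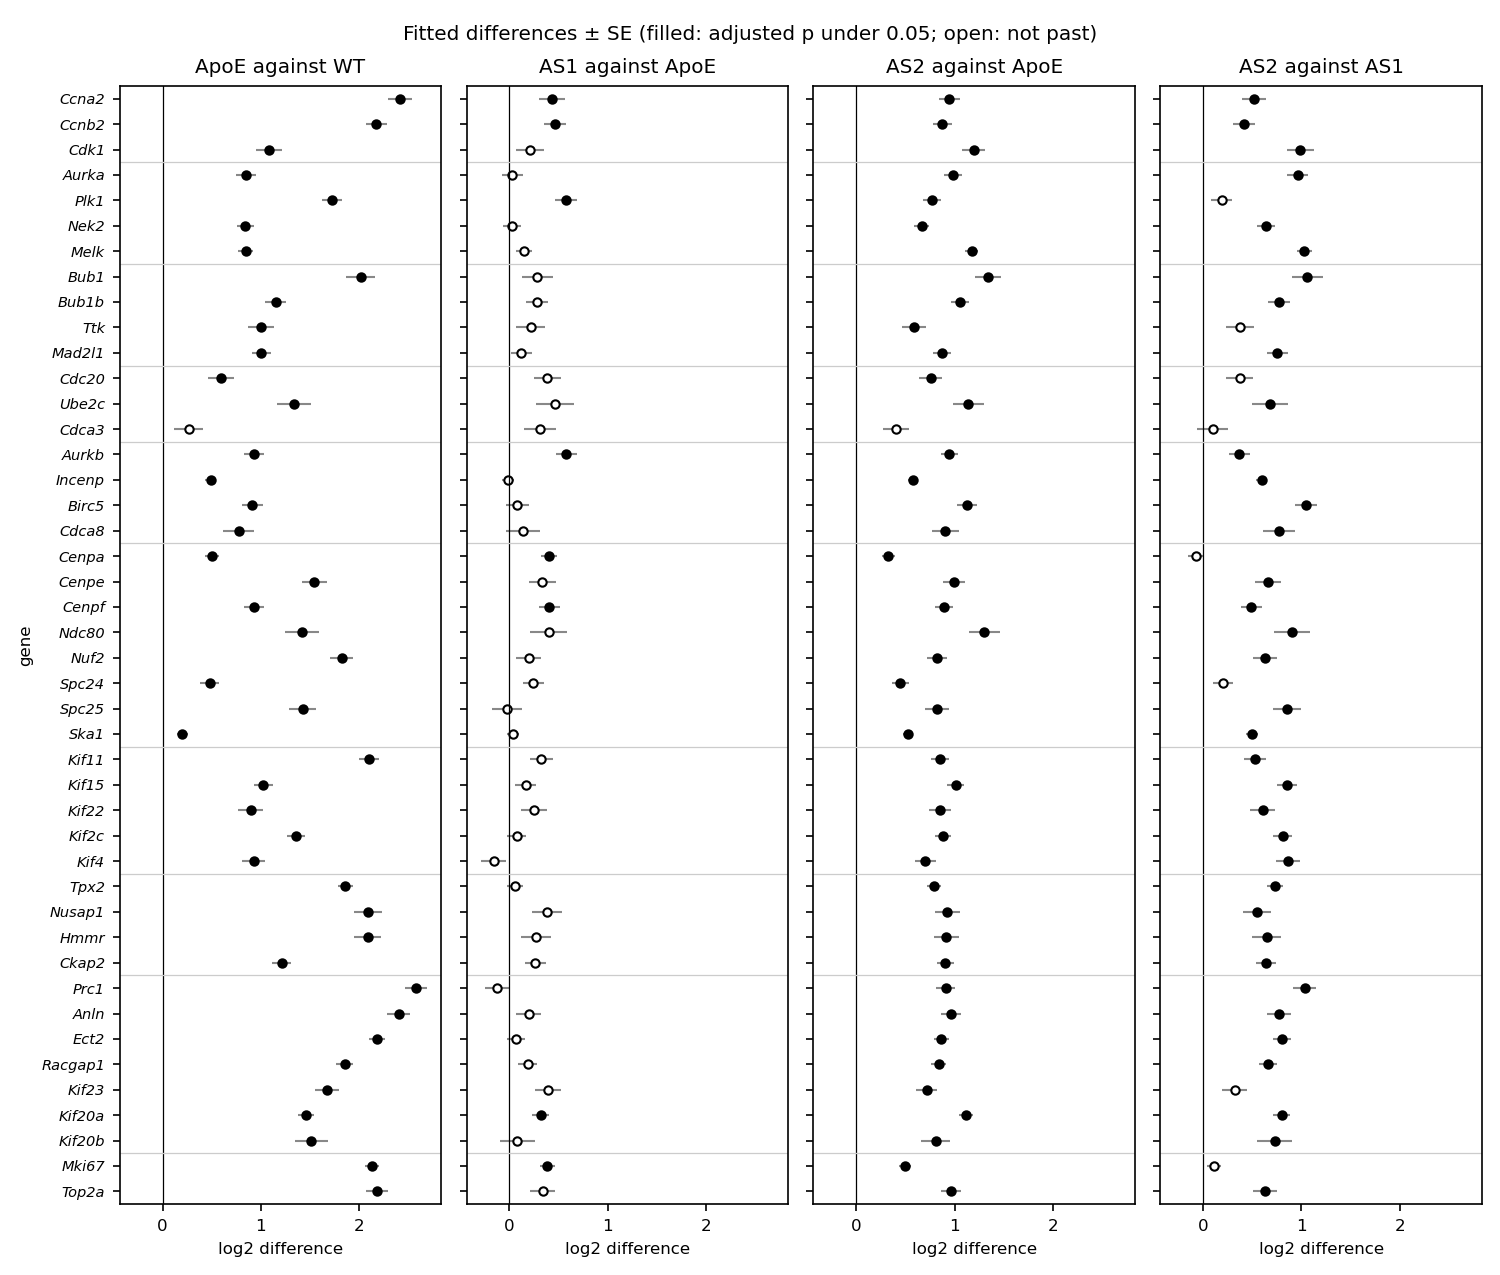
Fitted log2 difference (horizontal axis) with its standard error for 44 genes (rows, grouped by role as in the heatmap) in 4 comparisons; filled points passed an adjusted p under 0.05 and open points did not. The points of ApoE against WT spread from 0.20 to 2.58, those of AS2 against ApoE lie between 0.33 and 1.35, and most points of AS1 against ApoE are open.

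Among the mitotic cyclins and their kinase, Ccna2, which encodes cyclin A2, read 5.42, 5.15, 5.70 and 5.98 with WT plasma, 8.12, 8.17, 7.79, 7.94 and 7.88 with ApoE plasma, 8.33, 8.50 and 8.41 with AS1 plasma and 8.85 to 8.99 (median 8.94) with AS2 plasma. No 2 groups overlapped, and Ccna2 rose by 2.42 ± 0.12 from WT to ApoE, 0.43 ± 0.13 from ApoE to AS1 (adjusted p = 0.0297) and 0.52 ± 0.13 from AS1 to AS2. The AS1 difference of Ccna2 missed the threshold in 7 of 28 alternative fits. Ccnb2, the gene of cyclin B2, read 5.29, 4.98, 5.19 and 5.39 with WT plasma, 7.39, 7.81, 7.35, 7.16 and 7.24 with ApoE plasma, 7.94, 7.94 and 7.70 with AS1 plasma and 8.21 to 8.34 (median 8.27) with AS2 plasma. Only ApoE replicate 2 reached into the AS1 range, and Ccnb2 differed by 2.18 ± 0.11, 0.47 ± 0.11 and 0.41 ± 0.11 in the same 3 steps. Cdk1 itself, the kinase these cyclins activate, read 6.03, 6.05, 6.13 and 6.45 with WT plasma, 7.21, 7.43, 7.46, 6.90 and 7.26 with ApoE plasma, 7.21, 7.83 and 7.34 with AS1 plasma and 8.31 to 8.69 (median 8.41) with AS2 plasma. Its ApoE and AS1 arrays overlapped, with a difference of 0.21 ± 0.14 (adjusted p = 0.439), whereas AS2 lay above both and differed from AS1 by 0.99 ± 0.14.

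Of the mitotic kinases, Plk1, the Polo-like kinase of mitotic entry and cytokinesis, read 5.34, 5.75, 5.92 and 5.74 with WT plasma, 7.19, 7.45, 7.45, 7.39 and 7.58 with ApoE plasma, 8.01, 7.90 and 8.06 with AS1 plasma and 7.95 to 8.34 (median 8.20) with AS2 plasma. WT, ApoE and AS1 did not overlap in Plk1, while AS1 and AS2 did, and the AS1 to AS2 difference of 0.19 ± 0.11 did not pass (adjusted p = 0.271). Aurka, the Aurora kinase of centrosomes and spindle poles, read 5.36, 5.12, 5.15 and 5.08 with WT plasma, 6.04, 6.22, 6.03, 5.82 and 6.04 with ApoE plasma, 6.08, 6.07 and 6.01 with AS1 plasma and 6.74 to 7.23 (median 7.08) with AS2 plasma. ApoE and AS1 were alike in range for Aurka, at a difference of 0.03 ± 0.11 (adjusted p = 0.931), and AS2 exceeded AS1 by 0.96 ± 0.10. The centrosomal kinase gene Nek2 and Melk, a kinase gene of dividing cells, showed the Aurka order of values: they rose by 0.84 and 0.85 with ApoE over WT plasma and by 0.64 and 1.03 with AS2 over AS1 plasma, and differed by 0.03 and 0.14 between AS1 and ApoE, which did not pass.

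The spindle checkpoint genes all rose with ApoE over WT and with AS2 over ApoE plasma, and 0 of 4 passed between AS1 and ApoE by limma. Bub1, a checkpoint kinase that docks its partners at kinetochores, read 4.93, 4.35, 4.81 and 4.92 with WT plasma, 6.81, 7.28, 6.55, 6.71 and 6.51 with ApoE plasma, 7.03, 7.29 and 6.85 with AS1 plasma and 7.99 to 8.32 (median 8.11) with AS2 plasma. The spread within ApoE (SD 0.31) exceeded its difference from AS1 (0.28), and AS2 was at least 0.70 above the highest AS1 or ApoE array. Bub1b, whose product BubR1 is part of the mitotic checkpoint complex, read 5.52, 5.27, 5.30 and 5.47 with WT plasma, 6.61, 6.92, 6.25, 6.47 and 6.47 with ApoE plasma, 6.84, 6.95 and 6.67 with AS1 plasma and 7.41 to 7.72 (median 7.59) with AS2 plasma. AS2 was the highest group on every array, 1.06 ± 0.09 above ApoE. Mad2l1, encoding the checkpoint protein MAD2 that binds CDC20, read 6.65, 6.30, 6.38 and 6.49 with WT plasma, 7.60, 7.46, 7.36, 7.54 and 7.37 with ApoE plasma, 7.81, 7.54 and 7.41 with AS1 plasma and 8.17 to 8.62 (median 8.30) with AS2 plasma. ApoE and AS1 overlapped, and WT and AS2 lay apart from them, AS2 by 0.88 ± 0.09 from ApoE. Ttk, the gene of the checkpoint kinase MPS1, was 4.93 ± 0.15, 5.93 ± 0.32, 6.15 ± 0.14 and 6.52 ± 0.16 (SD, n = 4, 5, 3 and 6) with WT, ApoE, AS1 and AS2 plasma, and AS2 overlapped ApoE.

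Among genes of anaphase promotion, Cdc20, the activator of the anaphase-promoting complex, read 5.57, 6.03, 5.91 and 5.75 with WT plasma, 6.44, 6.17, 6.57, 6.48 and 6.38 with ApoE plasma, 6.56, 6.94 and 6.89 with AS1 plasma and 6.98 to 7.64 (median 7.09) with AS2 plasma. It rose by 0.60 ± 0.13 with ApoE over WT plasma and 0.76 ± 0.12 with AS2 over ApoE plasma. The AS1 mean lay between those of ApoE and AS2 and differed from neither past the threshold (limma adjusted p = 0.0737 and 0.0608). AS1 replicate 1 (6.56) was within the ApoE range. Ube2c, the ubiquitin-conjugating enzyme of that complex, read 6.02, 6.78, 5.94 and 6.01 with WT plasma, 7.37, 6.94, 7.85, 7.76 and 7.73 with ApoE plasma, 7.99, 7.95 and 8.04 with AS1 plasma and 8.48 to 8.80 (median 8.69) with AS2 plasma. WT replicate 2 and ApoE replicate 2 stood apart in opposite directions in Ube2c, toward each other by 0.76 and 0.43 from their nearest arrays, and the groups still did not overlap. Cdca3, which encodes an adaptor for the destruction of the kinase WEE1, read 4.88, 5.58, 4.81 and 4.91 with WT plasma, 5.37, 4.88, 5.36, 5.35 and 5.59 with ApoE plasma, 5.64, 5.50 and 5.72 with AS1 plasma and 5.53 to 6.00 (median 5.66) with AS2 plasma. The same WT and ApoE arrays stood apart in Cdca3, WT replicate 2 being as high as the AS1 arrays, and the gene passed against WT with AS1 and AS2 plasma (0.57 and 0.67). The AS1 call of Cdca3 was lost in 16 of 28 alternative fits.

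The chromosomal passenger complex corrects faulty attachments and later directs cytokinesis, and its 4 genes all rose with ApoE over WT, with AS2 over ApoE and with AS2 over AS1 plasma. Aurkb, its kinase, read 6.58, 6.66, 6.94 and 6.95 with WT plasma, 7.84, 7.61, 7.74, 7.48 and 7.90 with ApoE plasma, 8.29, 8.43 and 8.15 with AS1 plasma and 8.55 to 8.87 (median 8.61) with AS2 plasma. The 4 groups did not overlap, and Aurkb rose by 0.58 ± 0.11 with AS1 over ApoE plasma (adjusted p = 0.000871). Incenp, its scaffold, read 6.80, 7.07, 6.90 and 6.76 with WT plasma, 7.34, 7.49, 7.33, 7.40 and 7.31 with ApoE plasma, 7.38, 7.38 and 7.32 with AS1 plasma and 7.90 to 8.00 (median 7.96) with AS2 plasma. The difference between AS1 and ApoE was -0.02 ± 0.06, with SDs of 0.04 and 0.07, and AS2 exceeded AS1 by 0.60 ± 0.06. Birc5, encoding the subunit survivin, read 4.18, 3.78, 4.17 and 4.11 with WT plasma, 4.96, 4.64, 5.15, 4.99 and 5.13 with ApoE plasma, 5.06, 5.19 and 4.92 with AS1 plasma and 5.93 to 6.32 (median 6.07) with AS2 plasma. WT means of Birc5 lay below the array median, ApoE and AS1 overlapped, and AS2 exceeded AS1 by 1.05 ± 0.11. Cdca8, which encodes borealin, rose by 0.77 with ApoE over WT and 0.91 with AS2 over ApoE plasma. Within this one complex the AS1 values thus stood above ApoE for the kinase gene and overlapped ApoE for the other 3 genes; differences between genes were not tested.

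All 8 kinetochore and centromere genes rose with ApoE over WT plasma and with AS2 over ApoE plasma. Cenpa, the histone variant that marks centromeres, read 7.21, 7.36, 7.29 and 7.32 with WT plasma, 7.68, 7.73, 7.83, 7.72 and 8.03 with ApoE plasma, 8.13, 8.29 and 8.18 with AS1 plasma and 7.91 to 8.30 (median 8.12) with AS2 plasma. It is the gene in which AS2 did not exceed AS1: the ranges overlapped, the difference was -0.08 ± 0.08 (adjusted p = 0.602), and AS1 exceeded ApoE by 0.40 ± 0.08. Cenpe, a kinetochore kinesin, read 6.20, 6.02, 5.97 and 5.96 with WT plasma, 7.69, 8.07, 7.14, 7.44 and 7.58 with ApoE plasma, 7.99, 7.91 and 7.85 with AS1 plasma and 8.43 to 8.73 (median 8.57) with AS2 plasma. ApoE replicate 2 was as high as the AS1 arrays in Cenpe, and the AS1 difference of 0.33 ± 0.14 did not pass (adjusted p = 0.122). Ndc80, the microtubule-binding subunit for which the NDC80 complex is named, read 5.64, 6.33, 6.39 and 6.41 with WT plasma, 7.91, 7.81, 7.52, 7.18 and 7.64 with ApoE plasma, 7.88, 8.45 and 7.71 with AS1 plasma and 8.76 to 9.09 (median 8.89) with AS2 plasma. WT replicate 1 was low and AS1 replicate 2 high in Ndc80, and AS2 lay above all other arrays. Spc24, another subunit of the complex, read 5.43, 5.61, 5.24 and 5.53 with WT plasma, 5.75, 6.28, 5.84, 5.74 and 6.04 with ApoE plasma, 6.23, 6.13 and 6.17 with AS1 plasma and 6.27 to 6.50 (median 6.36) with AS2 plasma. Its steps were small, 0.48 ± 0.10 and 0.45 ± 0.09, and ApoE replicate 2 reached into the AS2 range. The complex's other subunit genes Nuf2 and Spc25 rose by 1.83 and 1.43 with ApoE over WT plasma, and by 0.82 and 0.82 with AS2 over ApoE plasma. Cenpf, a large kinetochore protein gene, rose in each of those comparisons (0.93 and 0.89) and with AS1 over ApoE plasma. Ska1, a microtubule-binding kinetochore gene close to the floor of the array, was 3.90 ± 0.04, 4.10 ± 0.06, 4.14 ± 0.03 and 4.63 ± 0.12 (SD, n = 4, 5, 3 and 6) with WT, ApoE, AS1 and AS2 plasma.

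Spindle motors, which are kinesins that slide microtubules or move chromosome arms, rose in 5 of 5 genes with ApoE over WT, AS2 over ApoE and AS2 over AS1 plasma, and in 0 of 5 with AS1 over ApoE plasma. Kif11, the motor that pushes spindle poles apart, read 5.87, 5.44, 5.73 and 5.80 with WT plasma, 7.97, 8.15, 7.58, 7.67 and 7.69 with ApoE plasma, 8.08, 8.24 and 8.10 with AS1 plasma and 8.58 to 8.79 (median 8.66) with AS2 plasma. ApoE replicate 2 overlapped the AS1 arrays in Kif11, and the difference of 0.33 ± 0.11 did not pass (adjusted p = 0.0601); it passed in 6 of 28 alternative fits. Kif2c, a kinesin that takes microtubules apart at centromeres, read 4.49, 4.53, 4.73 and 4.54 with WT plasma, 5.81, 6.19, 5.86, 6.02 and 5.80 with ApoE plasma, 6.13, 6.13 and 5.76 with AS1 plasma and 6.67 to 6.95 (median 6.82) with AS2 plasma. ApoE and AS1 overlapped throughout, and AS2 exceeded AS1 by 0.81 ± 0.10. Kif4, a chromosome-bound kinesin, read 4.44, 4.55, 4.21 and 4.54 with WT plasma, 5.49, 5.58, 5.37, 5.29 and 5.10 with ApoE plasma, 5.28, 5.29 and 5.04 with AS1 plasma and 5.82 to 6.42 (median 6.00) with AS2 plasma. It was lower with AS1 than with ApoE plasma in the mean, by a difference that did not pass (-0.16 ± 0.13, adjusted p = 0.516), and AS2 exceeded AS1 by 0.86 ± 0.12. Kif15 and Kif22, 2 further motors of spindle and chromosomes, rose by 1.03 and 0.90 with ApoE over WT and by 1.01 and 0.85 with AS2 over ApoE plasma.

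The genes of spindle assembly factors had a median difference of 1.98 between ApoE and WT. Tpx2, which activates Aurora A and nucleates microtubules, read 5.51, 5.09, 5.44 and 5.35 with WT plasma, 7.20, 7.43, 7.13, 7.12 and 7.15 with ApoE plasma, 7.16, 7.32 and 7.32 with AS1 plasma and 7.92 to 8.11 (median 8.00) with AS2 plasma. ApoE and AS1 overlapped in Tpx2, at a difference of 0.06 ± 0.09 (adjusted p = 0.78), whereas WT lay 1.86 ± 0.08 below ApoE and AS2 0.79 ± 0.07 above it. Nusap1, a microtubule-bundling protein gene, read 6.00, 5.58, 5.71 and 5.05 with WT plasma, 7.86, 7.88, 7.57, 7.42 and 7.67 with ApoE plasma, 8.09, 8.11 and 7.98 with AS1 plasma and 8.51 to 8.83 (median 8.57) with AS2 plasma. The groups did not overlap, and the AS1 difference of 0.38 ± 0.15 did not pass (adjusted p = 0.11). The microtubule-associated genes Hmmr and Ckap2 had the same order, with 2.09 and 1.21 for ApoE over WT and 0.92 and 0.91 for AS2 over ApoE plasma.

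Cytokinesis genes, 7 of 7, rose with ApoE over WT and with AS2 over ApoE plasma, with median differences of 1.86 and 0.86. Prc1, the protein that bundles the central spindle, read 5.06, 4.82, 4.82 and 5.23 with WT plasma, 7.75, 7.79, 7.54, 7.30 and 7.43 with ApoE plasma, 7.26, 7.66 and 7.40 with AS1 plasma and 8.34 to 8.62 (median 8.44) with AS2 plasma. Prc1 was 5.98-fold higher with ApoE than with WT plasma, AS1 was not higher than ApoE (-0.12 ± 0.12, adjusted p = 0.619), and AS2 exceeded AS1 by 1.03 ± 0.12. Anln, encoding the furrow scaffold anillin, read 5.49, 5.24, 5.15 and 5.31 with WT plasma, 7.83, 8.15, 7.65, 7.37 and 7.53 with ApoE plasma, 8.01, 7.96 and 7.72 with AS1 plasma and 8.63 to 8.78 (median 8.65) with AS2 plasma. The AS2 arrays kept within 0.14 of each other in Anln, and AS1 overlapped ApoE. Ect2, the exchange factor that activates RhoA at the furrow, read 5.63, 5.57, 5.63 and 5.61 with WT plasma, 8.04, 7.92, 7.66, 7.74 and 7.63 with ApoE plasma, 7.75, 7.72 and 8.11 with AS1 plasma and 8.61 to 8.76 (median 8.63) with AS2 plasma. Its WT arrays lay within 0.07 of each other, 2.18 ± 0.08 below ApoE, and AS1 replicate 3 was the array that reached above ApoE replicate 1.

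Centralspindlin, the partner of ECT2 and PRC1 at the midzone, is a complex of RACGAP1 and the kinesin encoded by Kif23. Racgap1 read 5.31, 4.89, 5.08 and 5.16 with WT plasma, 7.08, 7.20, 6.80, 6.91 and 6.86 with ApoE plasma, 7.12, 7.14 and 7.20 with AS1 plasma and 7.71 to 7.97 (median 7.79) with AS2 plasma. Kif23 read 6.11, 5.92, 6.33 and 6.28 with WT plasma, 7.94, 8.28, 7.66, 7.58 and 7.72 with ApoE plasma, 8.21, 8.36 and 8.13 with AS1 plasma and 8.39 to 8.75 (median 8.53) with AS2 plasma. For the first gene AS2 exceeded AS1 by 0.66 ± 0.09, and for the second the difference of 0.32 ± 0.13 did not pass (adjusted p = 0.0922), although the AS2 and AS1 arrays did not overlap. Kif20a, a midzone kinesin that carries passenger proteins, read 5.44, 5.78, 5.50 and 5.26 with WT plasma, 7.01, 7.07, 6.84, 6.83 and 7.04 with ApoE plasma, 7.30, 7.33 and 7.20 with AS1 plasma and 7.97 to 8.16 (median 8.07) with AS2 plasma. No 2 groups overlapped in Kif20a, which rose by 0.32 ± 0.09 with AS1 over ApoE plasma (adjusted p = 0.0193) and by 0.80 ± 0.09 with AS2 over AS1 plasma. Kif20b, a related kinesin of late cytokinesis, read 5.47, 4.44, 5.16 and 5.09 with WT plasma, 6.80, 6.92, 6.34, 6.35 and 6.36 with ApoE plasma, 6.62, 6.58 and 6.71 with AS1 plasma and 7.08 to 7.55 (median 7.40) with AS2 plasma. WT replicate 2 was low in Kif20b, and ApoE overlapped AS1.

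Of the chromosome structure genes, Mki67, whose product Ki-67 coats mitotic chromosomes and is the usual stain for cycling cells, read 7.96, 7.92, 8.09 and 8.14 with WT plasma, 10.25, 10.38, 10.06, 9.95 and 10.18 with ApoE plasma, 10.51, 10.55 and 10.59 with AS1 plasma and 10.60 to 10.75 (median 10.65) with AS2 plasma. Mki67 had its large step between WT and ApoE (2.13 ± 0.07); AS1 exceeded ApoE by 0.39 ± 0.08, and AS2 exceeded ApoE by 0.50 ± 0.06 but AS1 by 0.11 ± 0.07, which did not pass (adjusted p = 0.381). Top2a, the topoisomerase that untangles sister chromatids, read 6.82, 6.50, 6.68 and 6.98 with WT plasma, 8.96, 9.40, 8.71, 8.73 and 8.83 with ApoE plasma, 9.27, 9.28 and 9.25 with AS1 plasma and 9.81 to 9.99 (median 9.88) with AS2 plasma. Top2a rose by 2.18 ± 0.11 with ApoE over WT and by 0.96 ± 0.10 with AS2 over ApoE plasma, and its AS1 arrays, within 0.03 of each other, lay below ApoE replicate 2.

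**Figure D4:**
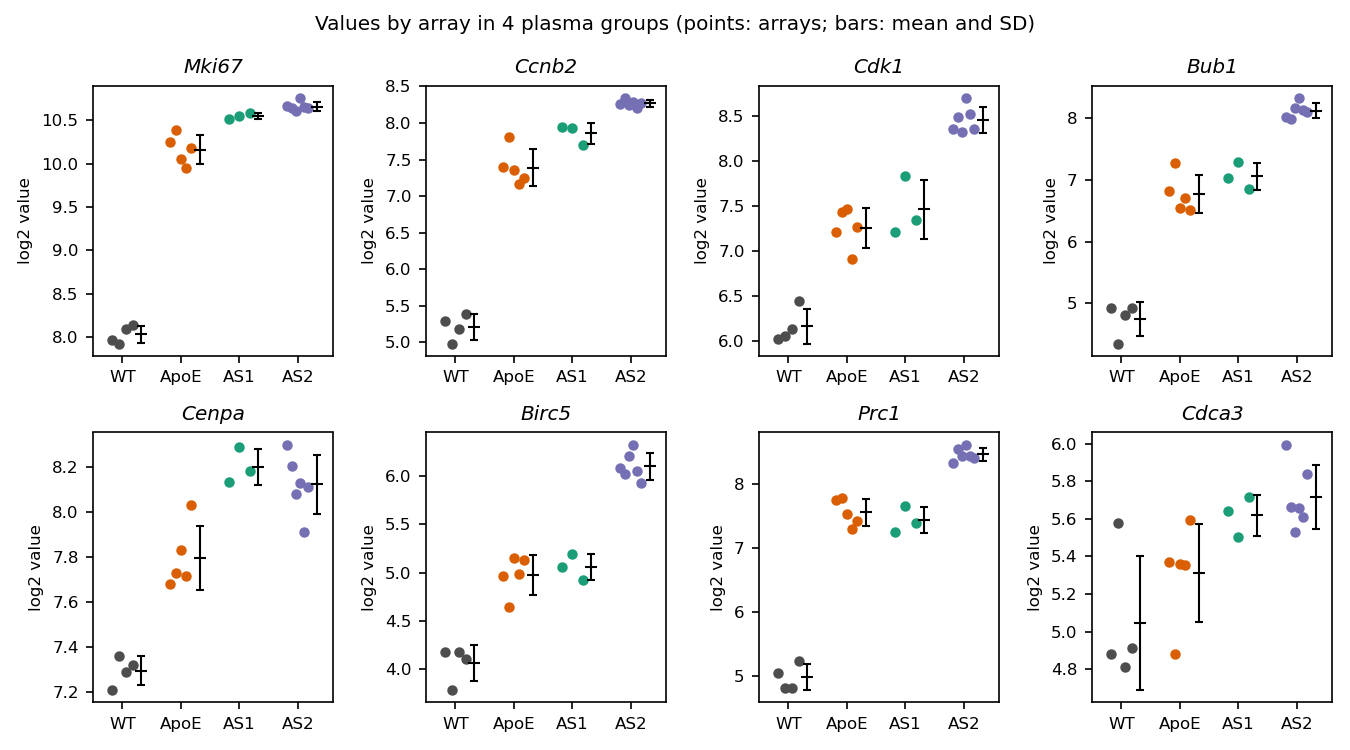
Log2 value on each array (points) in 4 plasma groups for 8 genes, with group mean and SD (bars); each panel has its own vertical scale. Mki67 is nearly as high with AS1 as with AS2 plasma and Cenpa is not lower, whereas Cdk1, Bub1, Birc5 and Prc1 are near the ApoE level with AS1 plasma and highest with AS2 plasma; Cdca3 overlaps in most groups.

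Other genes of the same processes were taken from 8 lists by role, 120 of 121 of them measured. With ApoE over WT plasma 67 rose and 1 fell, with a median difference of 0.36, and with AS2 over ApoE plasma 67 rose and 5 fell, with a median of 0.30. With AS1 over ApoE plasma 14 rose and 16 fell (median 0.01), and with AS2 over AS1 plasma 69 rose and 2 fell (median 0.31). The background shares are those given above for the same comparisons.

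Regulators of mitotic transcription had 4 of 13 higher with ApoE over WT plasma and 3 of 13 higher with AS2 over ApoE plasma. Foxm1, the activator of this gene group, rose by 1.26 ± 0.13 and 0.74 ± 0.12, and Rbl1, encoding the pocket protein p107, by 0.71 ± 0.09 and 0.59 ± 0.08. Lin54, the CHR-binding subunit of DREAM, rose by 0.51 with ApoE plasma and fell with AS1 over ApoE plasma (-0.22), as did the CCAAT-binding subunit gene Nfyb (-0.47). Mybl2 rose by 0.49 with AS2 over ApoE plasma.

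Of 16 other regulators of mitotic entry and exit, 12 rose with ApoE over WT and 12 with AS2 over ApoE plasma. Wee1 and Mastl, kinases that restrain and sustain mitotic entry, rose by 1.54 and 1.42 with ApoE plasma; the mitotic kinase gene Pbk (1.40) and the phosphatase gene Cdc25b (0.78) rose with AS2 over ApoE plasma. The cyclin F gene Ccnf rose in 3 comparisons, by 0.89 for ApoE over WT, 0.34 for AS1 over ApoE and 0.91 for AS2 over ApoE, while the phosphatase gene Cdc25a fell with AS1 over ApoE plasma (-0.55).

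The list of the anaphase-promoting complex held subunits, which cells hold throughout the cycle, and Ube2s, an enzyme that works with the complex. With ApoE over WT plasma 6 of 12 genes rose, among them Ube2s (0.54) and Cdc23 (0.32). With AS2 over ApoE plasma 3 rose, among them Ube2s (0.41), and 1 fell (Cdc16 at -0.26). With AS1 over ApoE plasma 5 of 12 fell, among them Anapc4 (-0.40), Cdc26 (-0.40) and Cdc23 (-0.24). Of 30 other kinetochore and centromere genes, 14 rose with ApoE over WT plasma, among them Casc5 (2.03), Spdl1 (1.89) and Cenpn (1.29), and 21 with AS2 over ApoE plasma, with Cenpi at 0.94. Spdl1, which recruits dynein to kinetochores, fell with AS1 over ApoE plasma (-0.93), and Hjurp, the chaperone of CENP-A, rose (0.43).

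Condensin, the complex that compacts chromosomes, had 6 of 8 genes higher with ApoE over WT plasma (Ncaph 1.09) and 5 of 8 with AS2 over ApoE plasma (Ncapd2 0.80). Cohesin, which holds sister chromatids together, had 4 of 11 and 5 of 11 higher in the same comparisons, and 0 and 1 lower. Those higher in both included Cdca5, encoding sororin (0.77 and 1.02), and the acetyltransferase gene Esco2 (0.65 and 0.89). Among 16 other spindle and motor genes, 13 rose and 1 fell with ApoE over WT plasma, with Dlgap5 at 1.51. With AS2 over ApoE plasma 11 rose and 1 fell. Kif3a, a transport kinesin of cilia, rose with ApoE over WT plasma (1.12) and fell with AS1 and AS2 over ApoE plasma (-0.78 and -1.26). Of 14 other cytokinesis genes 8 rose with ApoE over WT plasma, and 7 rose and 2 fell with AS2 over ApoE plasma. Those that rose included the abscission gene Cep55 (1.12 and 0.98), Iqgap3 (1.27 and 0.49) and Shcbp1 (1.03 and 1.11).

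DNA replication genes, which act in the phase before mitosis, were set beside them as a list of 20. Of these 15 rose with ApoE over WT plasma (median 0.51), against 8.54% of all rows. With AS2 over ApoE plasma 20 rose (median 0.83), against 7.59% of all rows. With AS1 over ApoE plasma 2 of 20 rose and 2 fell (median -0.06), near the shares of all rows (7.74% and 8.8%). Rrm2, the ribonucleotide reductase subunit, rose by 1.47 with ApoE plasma, and Mcm5 and Pole by 1.03 and 1.27 with AS2 over ApoE plasma. For the mitosis and cytokinesis genes the medians in the same order were 1.35, 0.88 and 0.25; whether the lists differ was not tested.

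Markers of other cell types moved between the same groups. All 9 measured macrophage markers were above the array median on every array. With ApoE over WT plasma 7 of 9 fell and 1 rose. With AS1 over ApoE plasma 6 rose and 0 fell, and with AS2 over ApoE plasma 3 rose and 2 fell. Their list means were 11.15 to 11.21 on WT, 10.62 to 10.84 on ApoE, 11.02 to 11.17 on AS1 and 10.73 to 10.85 on AS2 arrays. The 6 early neutrophil markers had list means of 6.18 to 6.36, 6.14 to 7.03, 7.99 to 8.22 and 6.15 to 6.58 in the same order, and all 6 rose with AS1 over ApoE plasma. The 8 late neutrophil markers had list means of 8.82 to 9.29, 8.63 to 9.90, 10.51 to 10.77 and 7.64 to 8.57; 8 rose with AS1 over ApoE plasma and 6 fell with AS2 over ApoE plasma. The 5 megakaryocyte markers had list means of 6.76 to 6.89, 7.06 to 7.92, 8.01 to 8.18 and 6.05 to 6.45, so the list mean was highest with AS1 plasma and lowest with AS2 plasma, where the mitosis genes were highest. With ApoE over WT plasma 4 of these 5 markers rose and 1, Pf4, fell (-0.57). Pf4 had its highest mean with WT plasma (9.94), and its mean was lower with AS1 (9.22) than with ApoE plasma (9.38). With AS1 over ApoE plasma 3 rose and 0 fell, and with AS2 over ApoE plasma all 5 fell, Pf4 among them (-1.49). Of 6 stem and progenitor markers 2 rose with ApoE over WT plasma, 2 rose with AS1 over ApoE plasma and 3 fell with AS2 over ApoE plasma, while Cd34 and Gata2 stayed below the array median on every array. Of 5 erythroid markers Klf1, Alas2, Hbb-bt and Rhd were below the array median on every array, as were Cd3e, Cd3g and Cd8a of 6 T and NK cell markers and Ms4a1 and Pax5 of 4 B cell markers. Other markers of these lists did move: Cd4 rose with ApoE over WT plasma (1.19) and fell with AS2 over ApoE plasma (-1.66), and Nkg7 rose with AS1 over ApoE plasma (0.55). Cd79b fell with ApoE over WT plasma (-0.53), rose with AS1 over ApoE plasma (1.22) and fell with AS2 over ApoE plasma (-0.58). Epor rose with AS1 over ApoE plasma (0.45) and fell with AS2 over ApoE plasma (-0.52), and Cd79a rose with AS1 over ApoE plasma (0.32). These markers were singled out after their values were seen. Among markers of mast cells, basophils and eosinophils 4 of 6 rose with AS1 over ApoE plasma, and Fcer1a and Ms4a2 stayed below the array median on every array. Dendritic cell markers had 3 of 6 higher with ApoE over WT plasma. With AS1 over ApoE plasma 2 of them rose, and with AS2 over ApoE plasma 2 fell. Of 6 stromal or endothelial markers, 1 rose with ApoE over WT, 1 fell with AS1 over ApoE and 2 fell with AS2 over ApoE plasma. For all marker lists, the shares over all rows are those given above for the same comparisons. The part of other cell types in the differences of the mitosis genes was not tested.

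**Figure D5:**
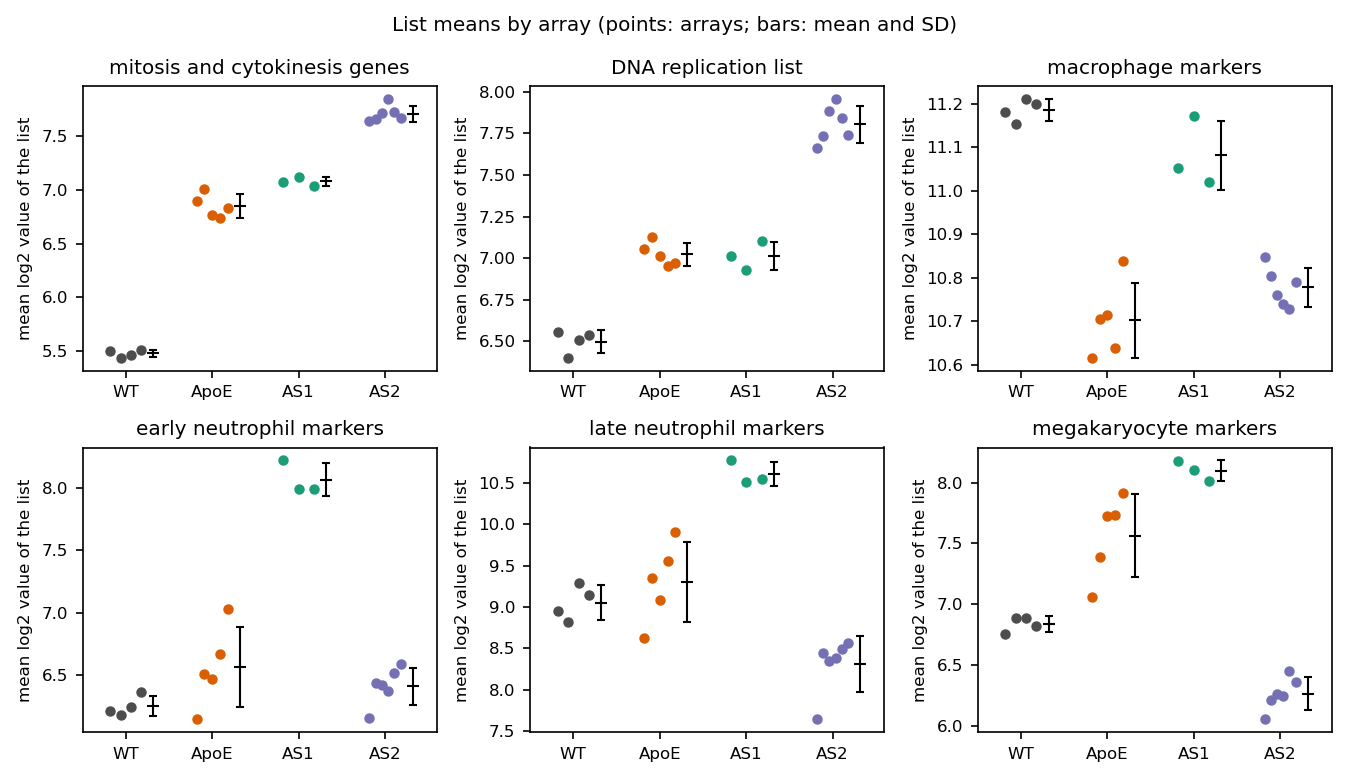
Mean log2 value over the genes of a list on each array (points) in 4 plasma groups, with group mean and SD (bars), for 44 mitosis and cytokinesis genes, 20 DNA replication genes and 4 marker lists; each panel has its own vertical scale. The mitosis genes have their highest list means on AS2 arrays (7.65 to 7.85). List means of early and late neutrophil and megakaryocyte markers are highest on AS1 arrays.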

How the data were processed

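RNA of bone marrow-derived macrophages was measured on 18 Affymetrix arrays (4 WT, 5 ApoE, 3 AS1 and 6 AS2 plasma), and groups were read from the sample titles. The deposited log2 values were made with RMA, per the submitters' processing notes; the version and probe set definitions behind it were not stated. Rows were named through the platform annotation: 24705 of 25428 had 1 gene symbol, and 723 were not used. Group means were fitted to all 24705 rows with limma 3.58.1 in R 4.3.3 (lmFit and eBayes, 14 residual degrees of freedom), with Benjamini-Hochberg adjustment within each of 6 comparisons and a threshold of 0.05. The procedure was tested on simulated data. No row was filtered on its level. The arrays give no counts, so their number limits the precision. The genes and lists were chosen with earlier results of these data known. All genes on the list are covered in counts; 32 of them, set by role, were chosen for values by array, of which Ccnb1 had no row, Cdca3 was added as a gene that did not pass in a comparison, and from each list of other genes up to 3 past the threshold with the smallest p in each of 3 comparisons could be named. RefSeq promoter windows are of GRCm38.p6. Arrays with the same replicate number did not deviate together, so no pairing was used. Alternatives covered rows, filter, normalization, variance model, weights, samples and single arrays left out.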

Additional observations from a re-analysis of the deposited data

Results flagged for a closer look

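For each gene and each group of 4 to 6 arrays, the gap between the highest or lowest array and its nearest neighbour was set against Dixon's critical value; of 132 such groups 7 exceeded it, where chance gives about 1 in 20. WT replicate 2 was apart in Ube2c, at 6.78 against 6.02 on the next array, and in Cdca3, at 5.58 against 4.91. WT replicate 1 was low in Ndc80, at 5.64 against 6.33. ApoE replicate 2 was high in Cdca8, at 6.74 against 6.27, and in Tpx2, at 7.43 against 7.20. AS2 replicate 4 was high in Cdc20, at 7.64 against 7.17, and in Anln, at 8.78 against 8.67. Without WT replicate 2, Cdca3 passed between ApoE and WT, at a log2 difference of 0.44 (limma adjusted p = 0.0223).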

How the results depend on the processing

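Under the alternatives run, 0 of the 44 genes fell in any of the 6 comparisons. Leaving out 1 array at a time gave 43 to 44 genes higher for ApoE over WT, 6 to 18 for AS1 over ApoE, 43 to 44 for AS2 over ApoE, 33 to 38 for AS2 over AS1, 42 to 44 for AS1 over WT and 44 for AS2 over WT. The count for AS1 over ApoE, 8 as reported, became 17 with array weights, 18 without ApoE replicate 2 and 16 without ApoE replicates 2 and 5. The other single-array fits gave 6 to 12. Shares of all rows were not counted in the alternative fits. The share of promoters with a CHR fell from 78.9% to 31.6% when the search was limited to the 150 bases before the start, which leaves out both the bases after the start and those farther before it. With the replicate number as a block, 43, 7, 43, 34, 43 and 44 genes were higher in ApoE over WT, AS1 over ApoE, AS2 over ApoE, AS2 over AS1, AS1 over WT and AS2 over WT, although correlations of same-numbered arrays ran from -0.21 to 0.13 and the numbers are not known to mark pairs. Birc5, Ska1 and Ckap2 with WT plasma, and Ska1 also with ApoE and AS1 plasma, had means below the array median (4.37). Others lay little above it with WT plasma, such as Kif4 (4.43), Melk (4.54) and Kif2c (4.57). Differences can be compressed that close to the array's floor, and the compression was not measured. The call of Ska1 for AS1 over WT was lost in 4 of 28 alternative fits.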
